A study of Homo sapiens with 8 samples.

Results

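α-Satellite is the tandem repeat DNA of human centromeres, and RNA transcribed from it stays bound to chromatin. The regions described here are the places on chromosome arms, far from the centromeres, where DNA was recovered with probes against α-satellite RNA. They are all peaks of the deposited lists whose start lies outside a set of 23 windows, 1 per chromosome (the autosomes and X), that were drawn around the centromeres and, on the acrocentric chromosomes, over the whole short arm. The windows are 3 to 43 Mb long and take up 267 Mb in all. By this rule 1353 of 65588 listed peaks were chromosome arm peaks, 1182 of them in the mitotic list and 171 in the asynchronous list. The rule uses position alone, so the strength, width and sharing of the peaks were free to vary.

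The study used RPE1, an immortalised human cell line derived from retinal pigment epithelium, recorded as wild type in every group. ChIRP-seq captures an RNA with biotin-tagged probes of complementary sequence, together with the sheared chromatin it is attached to, and reads out the DNA by sequencing. Each condition, mitotic cells (labelled Meta) and asynchronous cells (labelled Async), had 2 probe libraries, labelled Odd and Even, plus 1 input library and 1 library labelled Scr. What was analysed is 1 peak list per condition, called by the authors on the merged Odd and Even libraries on genome build hs1. The input and Scr libraries were not analysed here. DNA held through RNA was not separated from DNA paired directly with the probes, and no library is labelled as treated to remove RNA.

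The series design asks which genomic regions associate with α-satellite, and its title names SAF-A. SAF-A, also called HNRNPU, is a nuclear protein that binds RNA and chromatin and helps to organise interphase chromosomes. In mitosis chromosomes condense, most transcription stops and many RNAs leave the chromatin. Arms hold little α-satellite sequence, and human chromosome 2, which arose by fusion of 2 ancestral chromosomes, still carries the remains of a second, inactive centromere on its long arm. With 1 list per condition there is no replicate error and no test between conditions. Intervals below are exact 95% intervals that treat peaks as independent and cover counting error only.

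Arm peaks were more frequent in the mitotic list. They made up 3.52% of the mitotic list (3.33 to 3.73%) and 0.534% of the asynchronous list (0.457 to 0.620%). The ratio of counts was 6.91 (5.88 to 8.16), whereas inside the windows the lists had nearly equal counts, 32371 mitotic and 31864 asynchronous peaks, a ratio of 1.02 (1.0003 to 1.03). Arm peaks covered 286 kb in the mitotic list and 49.4 kb in the asynchronous list, which is 0.594% and 0.104% of the covered length of each list. Nearly all of the listed length therefore lay inside the windows in both conditions.

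More arm peaks were listed in mitotic than in asynchronous cells on each of the 23 chromosomes and each of the 41 arms. Chromosome 1 carried the most arm peaks in both lists, 127 mitotic and 18 asynchronous. Chromosome 5 came second in the mitotic list with 119 peaks, against 11 in the asynchronous list, a ratio of 10.8 (5.83 to 22.3). The fewest mitotic arm peaks lay on chromosome 21, with 13 mitotic and 3 asynchronous. Chromosome 22 had 20 mitotic and 0 asynchronous arm peaks. Its mitotic count was 6.67 times a floor of 3 counts set for the empty list, and the exact lower limit of the ratio was 4.94. The short arms of chromosomes 12 and 19 were also empty in the asynchronous list and held 19 and 20 mitotic peaks. These are 6.33 and 6.67 times the floor, with exact lower limits of the ratio of 4.67 and 4.94. Chromosome 14 stood apart: 23 mitotic and 16 asynchronous peaks gave a ratio of 1.44 (0.727 to 2.91), and it was the only chromosome with asynchronous arm peaks whose interval included 1. Among the calls before the authors' filter, counted as described further on, chromosome 14 had 2647 mitotic and 557 asynchronous arm calls, a ratio of 4.75, of which the lists kept 0.869% and 2.87%. The near-equal number of peaks there was thus not seen among the calls. Over the chromosomes with peaks in both lists the median ratio was 7.11.

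**Figure D1:**
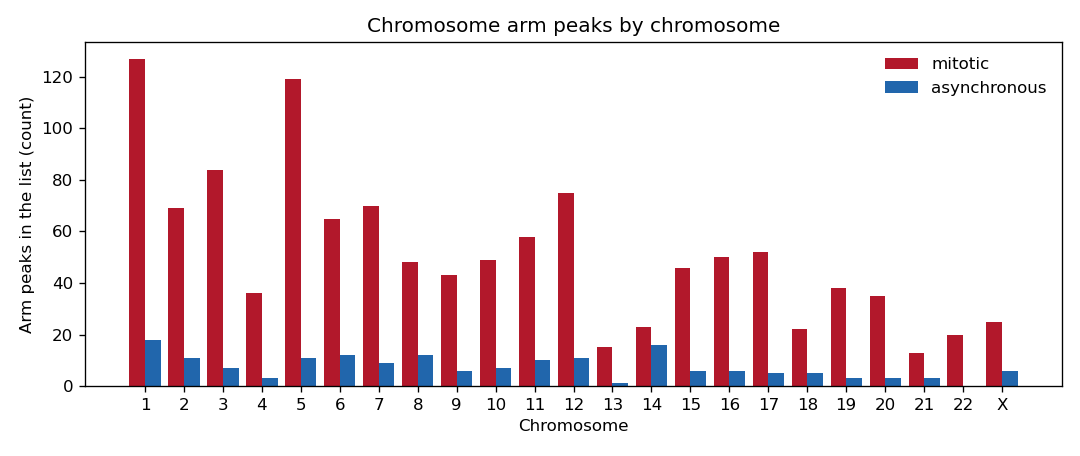
Number of chromosome arm peaks (vertical axis, count) on each chromosome (horizontal axis), with the mitotic list in red at the left of each pair and the asynchronous list in blue at the right. The mitotic bar is higher on all 23 chromosomes, chromosome 1 has the most in both lists (127 and 18), and chromosome 14 has the closest pair (23 and 16).

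Arms differ in length, so counts were also set per length. Short arms were measured from the chromosome start to the window, and long arms from the window to the furthest listed peak, which may fall short of the true end. Over all arms there were 0.432 mitotic and 0.0625 asynchronous peaks per Mb. Short and long arms had a similar excess: 423 mitotic and 61 asynchronous peaks on short arms, a ratio of 6.93 (5.29 to 9.23), and 759 and 110 on long arms, a ratio of 6.90 (5.64 to 8.51). The densest arm in the mitotic list was the short arm of chromosome 5, with 12.8 mitotic and 1.09 asynchronous peaks per 10 Mb. It was followed by the short arm of chromosome 19 with 8.33 and 0 and the long arm of chromosome 17 with 8.01 and 0.745 per 10 Mb. The sparsest mitotic arm was the short arm of chromosome 8, with 1.14 and 0.455, before the long arm of chromosome 13 with 1.59 and 0.106, the short arm of chromosome 4 with 1.63 and 0.204, and the long arm of X with 1.73 and 0.398. In the asynchronous list the densest arm was the long arm of chromosome 14, with 2.65 mitotic and 1.84 asynchronous peaks per 10 Mb, and next came the short arm of chromosome 6, with 7.24 and 1.72. Mitotic densities thus varied widely between arms. Across the 41 arms the densities of the 2 lists had a Spearman correlation of 0.37 and a Pearson correlation of 0.30, given as a description, since the arms share libraries and many asynchronous counts are below 5.

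**Figure D2:**
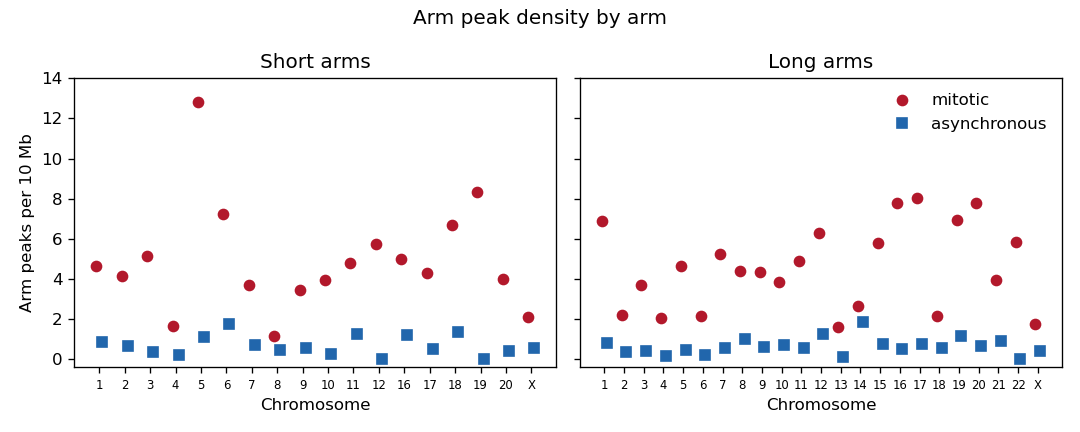
Chromosome arm peaks per 10 Mb (vertical axis) on short arms (left panel) and long arms (right panel) of each chromosome (horizontal axis), as red circles for the mitotic list and blue squares for the asynchronous list. The short arm of chromosome 5 is the highest mitotic point at 12.8 per 10 Mb, and no asynchronous arm exceeds 1.84.

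Most arm peaks lay far from the windows, 83.4% of mitotic and 76.6% of asynchronous ones at 10 Mb or more. The distance classes below differ in length, and counts per Mb by distance were not computed. Whether arm peaks were denser near the windows was thus not tested. Within 1 Mb outside a window there were 17 mitotic and 6 asynchronous peaks, with median fold enrichments of 3.95 and 4.05. In the first 1 Mb inside the window edges there were 2612 and 2696 peaks, with medians of 9.57 and 8.87. From 1 to 2 Mb outside there were 24 and 3, from 2 to 5 Mb 50 and 11, from 5 to 10 Mb 105 and 20, and from 10 to 20 Mb 188 and 14. Beyond 20 and up to 50 Mb the counts were 425 and 60, and further out 373 and 57. The ratio of counts was thus 4.90 (3.47 to 7.07) at less than 10 Mb from a window and 7.53 (6.27 to 9.10) from 10 Mb on. These intervals overlap, and the ratio did not change steadily with distance. It was 2.83 within 1 Mb, 13.4 from 10 to 20 Mb and 6.54 from 50 Mb on. Near chromosome starts, the first 100 kb of a short arm held 4 mitotic peaks, on chromosomes 6, 7, 9 and 16, and 1 asynchronous peak, on chromosome 16.

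Most arm peaks were isolated. The median gap from an arm peak to the next of the same list on the same arm was 1.20 Mb in the mitotic and 7.24 Mb in the asynchronous list, and 25 of 1141 and 4 of 133 such gaps were 10 kb or shorter. When arm peaks of both lists at most 10 kb apart were joined, they formed 1309 sites, of which 1275 were a lone peak and 5 held at least 3 peaks. The arms therefore showed mostly scattered small sites. Gaps and joined sites were not measured inside the windows.

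The peaks on arms were short and weak compared with those inside the windows. The authors' fold enrichment, the ratio of a peak's pileup to the peak caller's background, had a median of 3.91 in mitotic and 3.98 in asynchronous arm peaks, against 8.10 and 7.75 inside the windows. Median width was 219 and 217 bp on arms, against 823 and 869 bp inside. From the 25th to the 75th percentile the widths of arm peaks ran over 196 to 239.75 bp in the mitotic and 190 to 241 bp in the asynchronous list. The pileup signal had a median of 4.84 and 4.42 on arms and 10.4 and 9.01 inside the windows, in a scaling the sources used here do not give. A fold enrichment of at least 6 with a −log10 q of at least 5 was reached by 20 mitotic arm peaks (1.69%, 1.04 to 2.60%) and 6 asynchronous ones (3.51%, 1.30 to 7.48%). Over the whole lists 77.6% of mitotic and 73.7% of asynchronous peaks reached it. On every one of these measures the arm peaks of both conditions resembled each other more than they resembled the peaks inside the windows of their own list.

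**Figure D3:**
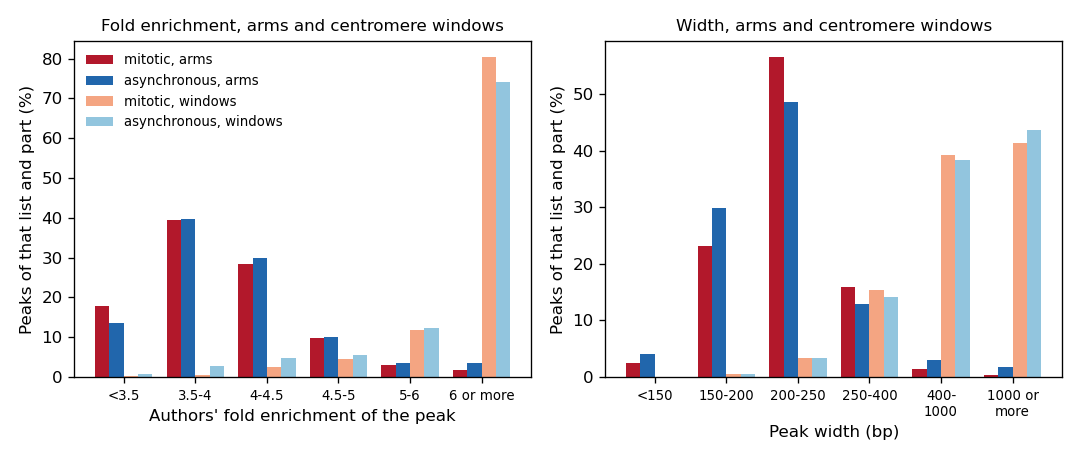
Share of peaks (vertical axes, percent of that list and part) by the authors' fold enrichment (left panel) and by peak width in bp (right panel), for mitotic arms (dark red), asynchronous arms (dark blue), mitotic windows (light red) and asynchronous windows (light blue). Arm peaks of both lists fall mostly below a fold enrichment of 4.5 and between 150 and 250 bp, whereas 80.4% of mitotic and 74.1% of asynchronous window peaks have a fold enrichment of at least 6.

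The mitotic list held more arm peaks than the asynchronous list in each class of fold enrichment. Below a fold enrichment of 3.5 there were 211 mitotic and 23 asynchronous arm peaks, a ratio of 9.17 (5.95 to 14.8). From 3.5 to 4 there were 465 and 68, giving 6.84 (5.29 to 8.96). Between 5 and 6 the ratio was 6 (2.50 to 17.4), from 36 and 6 peaks, and from 6 up it was 3.33 (1.29 to 10.1), from 20 and 6 peaks. All these intervals lie above 1, and they overlap each other, so a trend with fold enrichment was not resolved by these counts.

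The excess varied more with the unnamed scores in the final columns of the lists. Of these 3 scores the middle one never falls below 1 and the last never below 1.5 in either list, and no source used here says what they measure. Of the mitotic arm peaks 89.6% had a last score below 2, against 74.9% of the asynchronous ones, while inside the windows 7.84% and 5.48% did. Arm peaks with a last score below 2 numbered 1059 and 128, a ratio of 8.27 (6.88 to 10.02). Those at 2 or above numbered 123 and 43, a ratio of 2.86 (2.01 to 4.15). The middle score divided the lists more: below 1.5 there were 977 and 79 arm peaks, a ratio of 12.4 (9.83 to 15.8), and from 1.5 up 205 and 92, a ratio of 2.23 (1.73 to 2.88). Inside the windows the same division gave ratios of 1.01 and 1.02. The mitotic excess on arms was thus carried mostly by peaks close to the lowest values that the lists contain, and it was smaller but still present among the others. The part of the authors' filter in the excess was not tested.

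**Figure D4:**
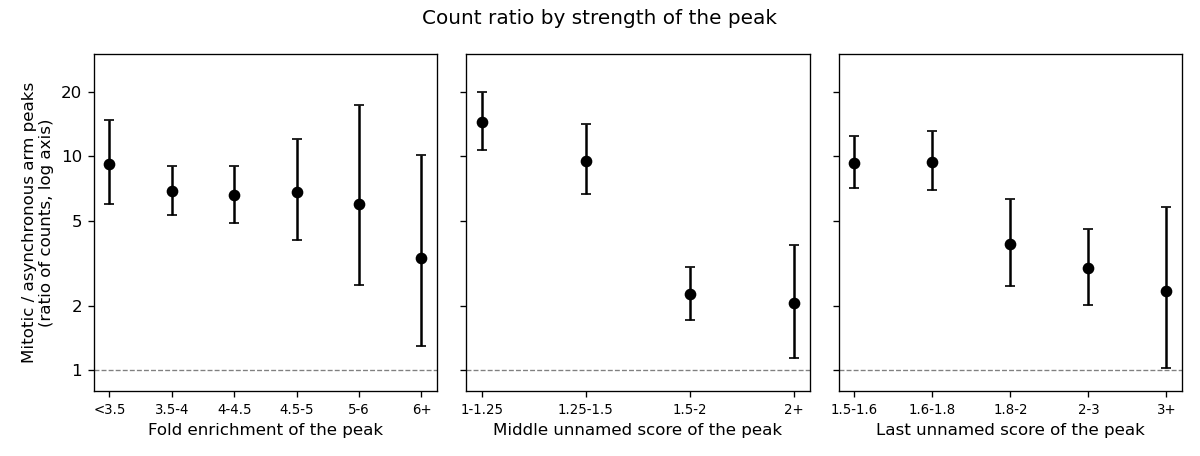
Ratio of mitotic to asynchronous chromosome arm peak counts (vertical axis, log scale) in classes of fold enrichment (left), the middle unnamed score (centre) and the last unnamed score (right), with exact 95% intervals for counting error as bars and a dashed line at a ratio of 1. The ratio is 14.4 in the lowest class of the middle score and 2.06 in its highest, and 9.28 and 2.33 in the lowest and highest classes of the last score.

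The running numbers in the peak names describe the calls that the lists no longer hold. Numbers follow genome order, so a missing number with listed arm peaks on both sides was counted as an arm call. On this count there were 84067 mitotic and 12412 asynchronous arm calls, a ratio of 6.77 (6.65 to 6.90). Another 5549 and 6311 missing numbers could be placed neither on an arm nor in a window. Assigning all such asynchronous numbers to the arms would lower the ratio to 4.49, and assigning all such mitotic ones would raise it to 7.22. The lists kept 1.41% of mitotic and 1.38% of asynchronous arm calls, against 53.7% and 56.01% of the calls inside the windows. On this count mitotic arm calls were also the more numerous, and the pooled ratio of the placed calls was close to that of the listed peaks. The calls were placed by means of the listed peaks, so the 2 ratios are not independent. The part of the filter in the excess was not tested. Chromosome by chromosome the ratios differed more. On the 21 chromosomes with placed calls in both lists the median ratio was 8.54 among the calls and 7.06 among the listed peaks, and it was lower, at 3.86, when every missing asynchronous number next to the first or last listed peak of an arm was added. The mitotic calls were the more numerous on all 21 either way. Among placed calls the kept share was higher in the asynchronous list on 15 of the 21, for instance 1.52% of mitotic and 3.99% of asynchronous calls on chromosome 6. It was higher in the mitotic list on the others, such as 1.94% and 1.10% on chromosome 5. Adding the missing numbers at arm ends raises the chromosome 6 calls from 4264 to 4573 mitotic and from 301 to 943 asynchronous. That reverses the order there. Added on every chromosome, these numbers reverse the order on most of the 15 and leave it on chromosomes 12 and 14. The count of 15 thus depends on how the missing numbers are placed, and which list kept the larger share was not resolved. Kept shares are upper values, more so in the asynchronous list, where more numbers were not placed. Sequencing depth of the libraries is unknown here, and its part in the number of weak calls was not tested.

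Few arm peaks were found in both conditions. By an overlap of at least 1 bp, 12 mitotic arm peaks (1.02%, 0.526 to 1.77%) met an asynchronous peak, and 13 asynchronous arm peaks (7.60%, 4.11 to 12.6%) met a mitotic peak. Over the whole lists the shares were 79.2% of mitotic and 81.9% of asynchronous peaks. The lists hold 1182 mitotic and 171 asynchronous arm peaks, so the 2 arm shares are not comparable with each other. Inside the windows peaks covered 47.9 and 47.5 Mb of 267 Mb, and on arms 0.286 and 0.0494 Mb of 2735 Mb. Overlap by position alone is thus likelier inside the windows, and how much of it to expect was not estimated. The median distance from an asynchronous arm peak to the nearest mitotic one was 479 kb, and 17 of 171 lay within 10 kb. Sharing was more frequent among the stronger arm peaks. At a fold enrichment of 5 or more, 11 of 56 mitotic (19.6%, 10.2 to 32.4%) and 8 of 12 asynchronous (66.7%, 34.9 to 90.1%) met the other list, whereas below 5 it was 1 of 1126 and 5 of 159. Every overlapping arm peak of either list had a last score of at least 2: below it 0 of 1059 mitotic and 0 of 128 asynchronous peaks met the other list, which allows shares of up to 0.348% and 2.84%. Among the arm peaks that passed the limits of 6 and 5 above, 9 of 20 mitotic and 5 of 6 asynchronous ones met the other list. Shares met at these limits are not given for peaks inside the windows, so the rise with strength cannot be called particular to arms.

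Joined at gaps of up to 10 kb, 13 sites on 7 chromosomes held peaks of both lists, and in 10 of them peaks overlapped. The mitotic list had the higher top fold enrichment in 10 of the 13 and the longer covered length in 11. The median of the top fold enrichment was 6.43 in the mitotic and 5.05 in the asynchronous list. These sites were found through both lists, so the values describe them and test nothing. All positions below are on build hs1, counted from 1. No annotation of that build was used, so no gene or repeat is named for them.

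**Figure D5:**
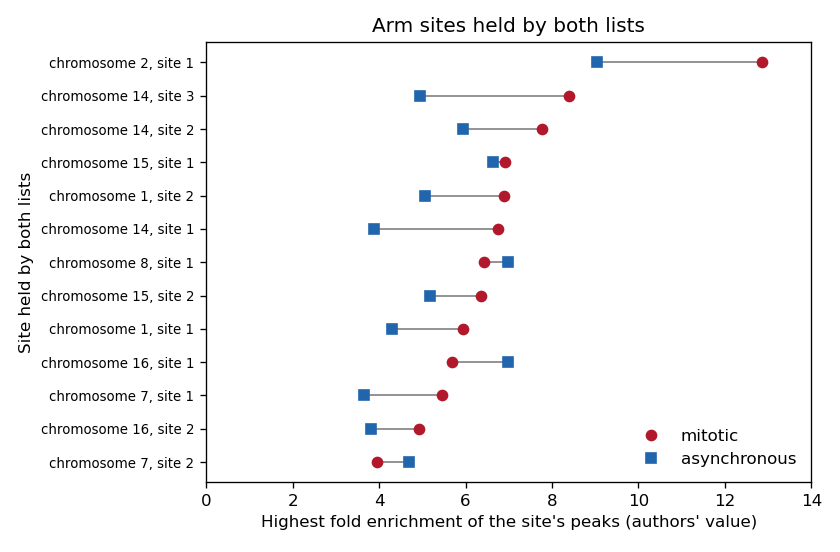
Highest fold enrichment among the peaks of each of the 13 arm sites held by both lists (horizontal axis, the authors' value), with red circles for the mitotic list, blue squares for the asynchronous list and a grey line joining them. Sites are named by chromosome and numbered along it, and the mitotic value is higher in 10 of the 13, most of all in absolute terms at the chromosome 2 site (12.9 and 9.05).

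The longest arm site lay on the long arm of chromosome 2, from 132644079 to 132683123, a span of 39.0 kb that starts 36.6 Mb past the window. Its peaks covered 20231 bp in the mitotic and 12105 bp in the asynchronous list. It alone made up 7.07% of the mitotic and 24.5% of the asynchronous length covered on arms. Of the 5 mitotic arm peaks of 1 kb or more, 3 lay here, as did 2 of the 3 asynchronous ones. The strongest arm peak of each list was also in it: the mitotic peak from 132658455 to 132662119 had a fold enrichment of 12.9, and the asynchronous peak from 132658453 to 132664223 had 9.05. The starts of these peaks differ by 2 bp. A second mitotic peak, from 132672728 to 132683123, is 10396 bp long and has a fold enrichment of 9.72, against 8.54 for the asynchronous peak from 132672926 to 132677770. At the near edge of the site the mitotic list has a peak of 6170 bp with a fold enrichment of 6.83, where the asynchronous list has peaks of 695 and 794 bp with 3.97 and 3.92. A fold enrichment of at least 8 was reached on arms by 5 mitotic and 2 asynchronous peaks in all, while 51.5% and 46.6% of the peaks inside the windows reached it. Whether the site falls in the remnant of the inactive centromere was not tested.

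Chromosome 14 held 3 of the shared sites. The first, from 13355102 to 13356509, lies 355 kb past the window and covered 1408 bp with a fold enrichment of 6.75 in the mitotic list, against 268 bp and 3.88 in the asynchronous list. The second, from 13669679 to 13671170, lies 670 kb past the window and was nearly equal in length, 1492 bp and 1425 bp, with fold enrichments of 7.77 and 5.94. Both are close to the centromere window. The third lies 69.8 Mb out on the long arm, from 82792818 to 82799069. It held 3 mitotic peaks of 325, 270 and 295 bp with fold enrichments of 8.38, 7.18 and 5.42, of which the asynchronous list had the first alone, at 220 bp and 4.94. Another 23.7 kb further on, from 82822725 to 82823945, the mitotic list had 2 more peaks, with fold enrichments of 4.86 and 9.94, and the asynchronous list had none. The peak at 9.94 is the second strongest mitotic arm peak, although it is only 367 bp wide. Without these neighbouring sites, with 5 mitotic peaks and 1 asynchronous peak, chromosome 14 would hold 18 mitotic and 15 asynchronous arm peaks.

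Several shared sites were short and matched closely. On chromosome 15, the peak from 23118252 to 23118571 had a fold enrichment of 6.91 in the mitotic list, and the asynchronous peak, starting 1 bp later and ending at 23118522, had 6.63. On chromosome 8, the mitotic peak from 70119679 to 70119971 had 6.43 and the asynchronous peak from 70119677 to 70119946 had 6.98. At the very start of chromosome 16, the mitotic peak from 1405 to 1644 had 5.69 and the asynchronous peak from 1418 to 1647 had 6.98, with pileups of 12.2 and 13.3, and the asynchronous pileup is the highest of its list on arms. These sites had nearly the same edges in both lists, and the asynchronous value was the higher on chromosomes 8 and 16. A site further along chromosome 15, from 57021754 to 57022395, covered 568 and 466 bp with 6.37 and 5.17. Of the 13 pairs of overlapping arm peaks, 6 had starts within 25 bp of each other, and the mitotic fold enrichment was higher in 10.

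Another 5 shared sites lay on chromosomes 1, 7 and 16. On chromosome 1, from 244271675 to 244276848, the mitotic list had peaks with 6.90 and 4.33, and the asynchronous list had 1 peak with 5.05, which overlapped the weaker mitotic peak. Near the start of the short arm of chromosome 7, from 1631551 to 1632046, the values were 5.45 and 3.66. A site close to the window of chromosome 7, from 56578054 to 56582976, had 1 mitotic peak with 3.95 between 2 asynchronous peaks with 3.86 and 4.69, and none overlapped. Peaks of the 2 lists also lay near each other without overlap on chromosome 16, from 33001604 to 33002449, with 4.92 and 3.82, and on chromosome 1, from 2211950 to 2222121, with 5.94 and 4.30. Peaks overlapped at 2 of these 5 sites.

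Some of the longest sites were listed in the mitotic cells alone. On the long arm of chromosome 4, from 131378001 to 131382748, 2 mitotic peaks covered 1370 bp with fold enrichments of 7.18 and 8.65. On the long arm of chromosome 22, from 51155930 to 51158344, 2 peaks covered 1357 bp with 5.19 and 6.60, and the peak at 6.60 is the furthest listed peak of that chromosome. A peak of 804 bp on chromosome 4, from 81521993 to 81522796, had 4.82, and on chromosome 5, from 143840001 to 143841014, 2 peaks covered 707 bp with 3.54 and 6.64. A run of 3 mitotic peaks on chromosome 1, from 227994101 to 227997746, covered 683 bp and stayed below 4. No peak of the asynchronous list lay within 10 kb of these sites, which does not show that no DNA was recovered there, since weaker signal is not listed.

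Sites listed in asynchronous cells alone included none that covered as much as 1 kb. The longest were 544 bp on chromosome 16, from 2562377 to 2562920, with a fold enrichment of 3.43, then 2 peaks of 524 bp together on chromosome 8, from 85589958 to 85592771, with 3.66 and 3.38, and 421 bp on chromosome 11, from 5564978 to 5565398, with 4.29. The strongest asynchronous arm peak without a mitotic counterpart, chosen after its value was seen, lay on chromosome 6 from 43599128 to 43599347 with 6.27. Arm peaks not met by the other list had a median fold enrichment of 3.91 in the mitotic and 3.95 in the asynchronous list, so the bulk of them differed little, and their highest values were 9.94 and 6.27. The chromosome 6 peak was the only one of the 6 strong asynchronous arm peaks not met by the mitotic list, against 11 of the 20 strong mitotic ones. Of the 1309 sites, 1143 were held by the mitotic list alone and 153 by the asynchronous list alone.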

How the data were processed

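Peaks are of ChIRP-seq libraries from RPE1 cells, grouped by sample title. The submitters' processing notes name fastp, Bowtie2, MACS2 and build hs1, without versions. Settings and the control library are not stated in these sources. Odd and Even libraries were merged before calling, per the labels, so 1 list stands for each condition. The lists have no header, and columns were read from the values and from the order in which MACS2 writes broad peaks. The deposited pileup signal, the deposited fold enrichment (a ratio), the deposited −log10 p (not used) and −log10 q and 3 deposited unnamed scores are the authors' own values per peak, used to describe and filter peaks within a list. Missing peak numbers show a filter by the authors whose rule is not stated.

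Arm peaks, sites (gaps up to 10 kb), overlaps (1 bp), Clopper-Pearson intervals for shares and conditional binomial intervals for ratios (both 95%) were computed in Python 3.11.15 with the packages numpy 2.4.6, scipy 1.17.1, pandas 2.3.3 and, for figures, matplotlib 3.10.9. The code was tested on simulated data. Sites named are the 12 longest, the shared ones, the 3 longest of either list alone and the 3 strongest peaks of each list. Reads in repeats can map to many places, and their placement is not stated. The windows, members and lists were chosen with earlier results of these data known. No sequence or annotation of build hs1 was used, so the planned gene counts were not made.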

Additional observations from a re-analysis of the deposited data

How the results depend on the processing

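The mitotic excess on arms held under all 8 alternatives that gave a ratio, from 2.86 to 7.24. It was lowest when the last unnamed score had to reach 2, at 2.86, and was 3.33 with limits of 6 on fold enrichment and 5 on −log10 q. That stricter limit also lowered the shares on arms to 0.0768% of the mitotic and 0.0254% of the asynchronous list. The shares met rose to 20% and 66.7%, here counted against the other list cut to the same limit and not against the full list as above. The median fold enrichment rose to 6.86 and 6.98, and the median width to 444.5 and 270 bp. The stricter limit left 3 shared sites and 9 chromosomes with more mitotic arm peaks, since it keeps 20 and 6 arm peaks. The 25% of each list with the highest fold enrichment kept 1 mitotic arm peak, 3665 bp wide, and 0 asynchronous ones, or 0.0119% and 0% of these peaks, which allows up to 0.0460% in the asynchronous list. Then 0% of mitotic arm peaks were met by the other list cut in the same way, 0 sites were shared, and neither a ratio nor asynchronous values could be given. A limit of 2 on the last score raised the shares met to 9.76% and 30.2%. Leaving out peaks within 2 Mb of a window and sites of at least 3 peaks lowered them to 0.442% and 3.21%. Joining sites at 100 kb gave 28 shared sites. The other 32 of 54 alternative values moved by less than the counting interval, or less than 1.5 times for counts. The alternatives with the last score, without the long chromosome 2 site, and with windows and clusters combined were added after the data had been seen. No paired analysis was possible because each condition has 1 merged list, and for the same reason no probe library could be left out. Depth per library is unknown, so it cannot be said which weak sites would be listed at equal depth.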
